A study of Mus musculus with 4 samples.

Results

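Cortical interneurons of juvenile mice that lack Grin1 in the medial ganglionic eminence (MGE) lineage were compared with those of wild-type (WT) mice, and the comparison was made within each version of the 10x Genomics chemistry. Cells labelled by the TdTomato reporter Ai14 under Nkx2.1-Cre were sorted from frontal cortex at postnatal days 18 to 20. Per the study's methods, tissue of both genotypes was recovered, dissociated and sorted in the activity blockers tetrodotoxin and APV and in actinomycin-D. The Grin1-null mice carry the same Cre and reporter together with a floxed Grin1, so that recombination is limited to cells that have expressed Nkx2.1. Each library pools 3 or 4 mice, and no cell can be traced to 1 animal. Mice of either sex were used in the study, but the sexes within a library are not given. WT replicate 1 and null replicate 1 were made with version 2 of the chemistry, whereas WT replicates 2 and 3 and null replicate 2 were made with version 3. A cell was taken as an interneuron when it had 200 to 6000 detected genes, under 30% of its unique molecular identifiers (UMIs) from mt- genes, at least 3 UMIs of Gad1 and Gad2 together and no UMI of Mog. These limits kept 5522 of the 12167 cortical cells, out of 26987 cells in the series: 744, 1587 and 2128 in WT replicates 1, 2 and 3 and 119 and 944 in null replicates 1 and 2. Cells with Sst at 3000 or more on a counts-per-million (CPM) scale of the cell are called Sst-high (2561 WT and 517 null cells), and the others Sst-low (1898 WT and 546 null cells).

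Grin1 encodes the GluN1 subunit that every NMDA receptor contains, so a cell without it has no working NMDA receptor. NMDA receptors open when glutamate binds while the membrane is depolarised, and the calcium that enters is read by kinases, phosphatases and transcription factors. The MGE supplies the cortex with its Sst interneurons, which contact dendrites, with its Pvalb interneurons, which contact cell bodies and proximal dendrites, and with a small share of its neurogliaform cells.

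The libraries differ in size and depth. The interneurons of WT replicates 1, 2 and 3 hold 6231749, 8998909 and 20224702 UMIs, and those of null replicates 1 and 2 hold 1176724 and 13127309. Median UMIs per interneuron are 7948.5, 4965 and 8888 in WT and 8703 and 14226 in null. Null replicate 1 stands apart by its size, with 72 Sst-high and 47 Sst-low cells, and null replicate 2 by its depth and by its cells with many mt- UMIs, since 287 of its 2898 cells had 30% or more mt- UMIs, against 0, 2 and 4 in the WT libraries and 3 in null replicate 1. WT replicate 2 stands apart by Fos, the immediate early gene, at 220 CPM against 22.4 and 36.0 CPM in the other WT libraries and 20.1 and 47.4 CPM in null. Xist, the female-specific transcript, differs between libraries, at 429, 0 and 25.1 CPM in WT and at 74.2 and 0 CPM in null, so that WT replicate 2 and null replicate 2 hold none of it. Ddx3y, on the Y chromosome, is at 20.5, 89.8 and 57.0 CPM in WT and 64.6 and 72.8 CPM in null. Over the 10 pairs of cortex libraries 13 barcodes are shared, 1 of them among interneurons, and 0 between the chemistries.

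The cells bear the label of MGE interneurons. Lhx6, the MGE transcription factor, is at 74.4, 123 and 107 CPM in WT and 89.9 and 117 CPM in null, and Sox6, which acts downstream of it, at 63.2, 87.1 and 91.4 CPM in WT and 59.4 and 58.2 CPM in null. Slc32a1, the vesicular GABA transporter, is at 342, 376 and 410 CPM in WT and 414 and 571 CPM in null. Gad1 and Gad2 served to choose the cells and Sst to split them, so their levels are given as a description. Gad1 is at 795, 943 and 691 CPM in WT and 816 and 1272 CPM in null, and Gad2 at 939, 1188 and 1195 CPM in WT and 1074 and 991 CPM in null. Just outside the limit on Gad1 and Gad2, 270 WT and 57 null cells had 2 UMIs, and just inside it 221 WT and 41 null cells had 3. Between 2000 and 3000 CPM of Sst lie 124 WT and 25 null cells, and between 3000 and 4000 lie 133 WT and 24 null cells. A Mog UMI kept out 44, 40 and 112 WT and 11 and 84 null cells with enough Gad1 and Gad2.

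Grin1 (chr2:25291181-25319187, GRCm38) fell in every set of cells. It stood at 148, 230 and 214 CPM in WT replicates 1, 2 and 3 and at 38.4 and 26.2 CPM in null replicates 1 and 2. Both null libraries lie far below all WT libraries, in the older and in the newer chemistry. The fitted change is -2.65 on the log2 scale (SE 0.32, edgeR adjusted p = 0.0208, n = 3 WT and 2 null libraries), with -1.82 within version 2 and -2.86 within version 3. Each chemistry holds 1 null library, so that values within it carry no test. Without WT replicate 2 the fitted change is -2.52 (adjusted p = 0.0519) and without null replicate 2 it is -1.96 (adjusted p = 0.245), so that either library ends the call in all interneurons. In Sst-high cells Grin1 fell by 2.61 (SE 0.31, adjusted p = 0.00333), from 155, 245 and 226 CPM to 37.1 and 31.3 CPM. In Sst-low cells it fell by 2.73 (SE 0.37, adjusted p = 0.0156), from 128, 215 and 190 CPM to 40.0 and 22.1 CPM. The call also ends without WT replicate 2 in Sst-high cells and without WT replicate 3 (-2.66) or null replicate 2 (-1.69) in Sst-low cells. The difference between the classes did not pass its test (difference 0.18, SE 0.18, adjusted p = 0.897). Which exons are floxed is not given in the sources used here, and 3′ counts check the genotype only in so far as the deletion lowers the 3′ end of the transcript. Thinning to 2000 UMIs leaves out cells with fewer, so that 449, 816 and 1223 Sst-high WT cells and 65 and 428 Sst-high null cells remained. Of these, 26.7, 40.0 and 36.9% in WT and 6.15 and 5.37% in null kept a Grin1 UMI. Among the oligodendrocyte-like cells with at least 3 Mog UMIs, which should lack Grin1, 0.811% of 1974 did (median depth before thinning 6143 UMIs, against 8342.5, 5416 and 8936.5 in Sst-high WT and 8898.5 and 15725 in Sst-high null cells), and unthinned 16 of 72 and 121 of 445 Sst-high null cells had a Grin1 UMI.

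Of the other NMDA receptor subunits none passed the test. Grin2a, which gives receptors faster closing, was at 50.8, 56.4 and 65.4 CPM in WT and 39.3 and 25.6 CPM in null, and both null libraries lie below WT (log2 -0.92, SE 0.27, adjusted p = 0.561). Grin2b, the subunit that predominates early in life, was at 392, 571 and 514 CPM in WT and 390 and 280 CPM in null (log2 -0.55, adjusted p = 0.997), with -0.01 within version 2 and -0.94 within version 3. Grin3a, which lowers calcium entry, was at 227, 313 and 358 CPM in WT and 360 and 206 CPM in null, so that the groups overlap. Grin2d stood at 34.0, 41.0 and 45.7 CPM in WT and 34.1 and 38.0 CPM in null. In all, 1 of the 6 subunits tested fell, Grin1, and 3 of 6 lie below WT in both null libraries, where 8.33% of all genes tested do. The median change of the 6 is -0.34, against -0.02 over all genes.

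Across all interneurons 11 of 13536 genes passed the test at an adjusted p under 0.05 (0.0813%), 9 higher (0.0665%) and 2 lower (0.0148%) in null, and 689 had an unadjusted p under 0.05 (5.09%). Within version 2, 174 genes differed at least 2-fold, and within version 3, 168 did, on a scale of log2 of CPM plus 5. In both chemistries 14 genes (0.103%) passed 2-fold in the same direction, 10 higher (0.0739%) and 4 lower (0.0296%), and 8 passed it in opposite directions (0.0591%). Among them, 9 of the 10 higher and 1 of the 4 lower genes are also among the 11. Both null libraries lie above all WT libraries in 6.87% of the genes. In Sst-high cells 7 of 12412 genes passed the test (0.0564%), 5 higher (0.0403%) and 2 lower (0.0161%), and 730 had an unadjusted p under 0.05 (5.88%). There 11 genes passed 2-fold in both chemistries (0.0886%), 9 higher (0.0725%) and 2 lower (0.0161%), with 9 in opposite directions (0.0725%). In this class 7.66% of the genes have both null libraries above WT and 8.41% have both below. In Sst-low cells 11 of 11795 passed the test (0.0933%), 9 higher (0.0763%) and 2 lower (0.017%), and 705 had an unadjusted p under 0.05 (5.98%). Here 27 genes passed 2-fold in both chemistries (0.229%), 15 higher (0.127%) and 12 lower (0.102%), with 14 in opposite directions (0.119%). The shares with both null libraries above and below WT are 8.3% and 9.05%. Grin1, Rn7sk and Gm5514 passed 2-fold in both chemistries in all 3 sets of cells. Without WT replicate 3, Gm5514 was lost from all 3 sets and Rn7sk from Sst-high cells. Rn7sk was also lost from Sst-high cells with at least 6 Gad1 and Gad2 UMIs. Over all genes the changes within the chemistries do not rise together: Pearson's r across genes is -0.14 in all interneurons, -0.13 in Sst-high and -0.07 in Sst-low cells, where genes are not independent replicates. The test has 2 residual degrees of freedom, and its counts move with single libraries. Without WT replicate 1 or null replicate 1, the chemistry term takes up the 1 version 2 library that is left. Both of these runs then compare null replicate 2 with WT replicates 2 and 3, so they are not separate checks. In all interneurons 78, 2 and 25 genes were called without WT replicates 1, 2 and 3 and 82 and 0 without null replicates 1 and 2, and none of the 11 is called without WT replicate 2 or null replicate 2. In Sst-high cells the counts are 620, 2 and 22, then 24 and 49, with none of the 7 called without WT replicate 2, Mir6236 lost without WT replicate 3, Tac1 and Akr1c18 without null replicate 1, and Mir6236 and Necab2 without null replicate 2. In Sst-low cells they are 157, 67 and 0, then 156 and 0, with none of the 11 called without WT replicate 3 or null replicate 2. With cells thinned to 2000 UMIs, 742, 1443 and 2064 WT and 109 and 896 null interneurons remained, so that shallower cells were left out as well. In this setting 13 genes were called in all interneurons, and 5 of the 11 were lost, Egfr, Igfbp6, Megf11, Opn3 and Ramp3. Thinned Sst-high cells gave 4, and only Grin1 and Necab2 of the 7 were kept, while Tac1, Akr1c18, Bhlhe41, Igfbp6 and Mir6236 were lost. Thinned Sst-low cells gave 21, with Egfr and Fgf1 lost of the 11. With the replicate number as a block in place of chemistry, 42 genes were called in all interneurons, 31 in Sst-high and 9 in Sst-low cells. That fit has fewer residual degrees of freedom than the main one. Its genotype effect comes from replicates 1 and 2 only, since WT replicate 3 is alone in its block. All 11 and all 7 were kept in the first 2 sets, and 7 of 11 in Sst-low cells, where Egfr, Igfbp4, Fgf1 and Crabp1 were lost.

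**Figure D1:**
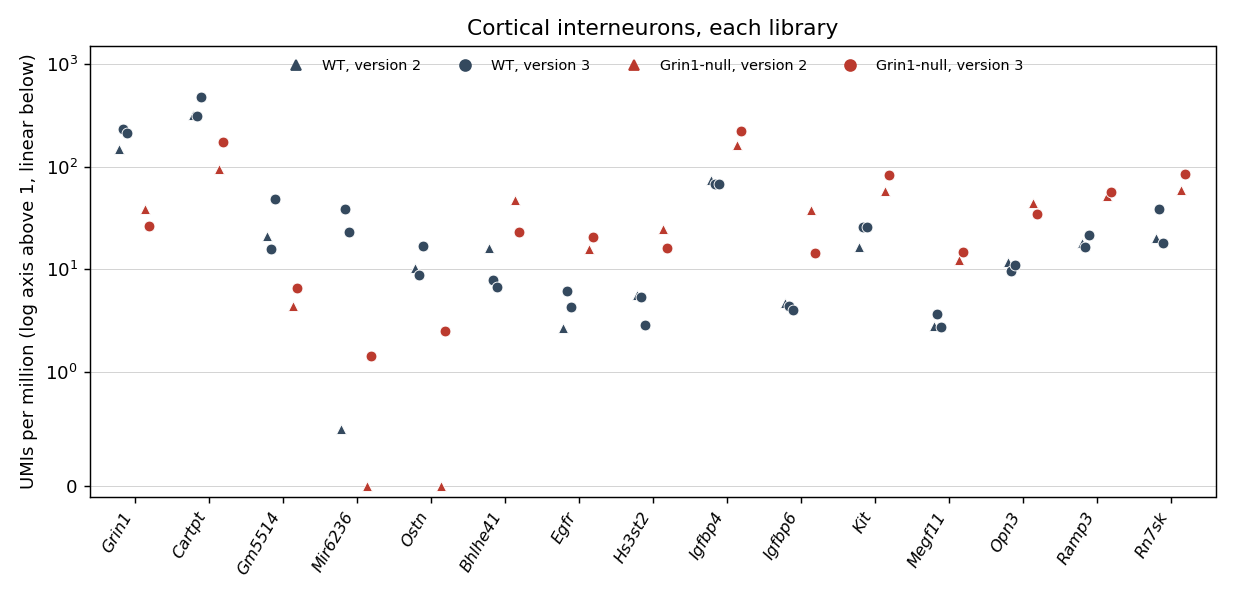
Each point is 1 library of all cortical interneurons, with CPM on the vertical axis (logarithmic above 1, linear below) and, along the horizontal axis, Grin1 and the other genes that passed the test or 2-fold in both chemistries. Triangles are version 2 and circles version 3; Grin1 lies at 148 to 230 CPM in WT and at 26.2 and 38.4 CPM in null, and Kit at 16.5 to 25.6 CPM in WT and at 57.6 and 81.8 CPM in null.

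Kit (chr5:75574916-75656722), the receptor tyrosine kinase for stem cell factor, was at 16.5, 25.6 and 25.5 CPM in WT and 57.6 and 81.8 CPM in null. Both null libraries lie above all WT libraries, and the rise is 1.73 (SE 0.22, adjusted p = 0.0213), with 1.54 within version 2 and 1.51 within version 3. Its rise lies in Sst-low cells, at 31.6, 43.7 and 44.2 CPM in WT and 134 and 159 CPM in null (log2 1.93, SE 0.23, adjusted p = 0.00913). In Sst-high cells it is at 7.74, 14.1 and 12.8 CPM in WT and 12.4 and 12.5 CPM in null, and the difference between the classes passed its own test (-1.85, SE 0.21, adjusted p = 0.00144). Of Sst-low cells thinned to 2000 UMIs, 5.12, 5.26 and 6.18% in WT and 18.2 and 17.1% in null kept a Kit UMI, against 1.22% of the Mog-positive cells, and unthinned the null cells with one number 11 of 47 and 142 of 499.

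Egfr (chr11:16752203-16918158), the receptor for epidermal growth factor, was in Sst-low cells at 7.33, 14.5 and 10.6 CPM in WT and 42.4 and 42.8 CPM in null. The null libraries lie close together and well above WT (log2 1.99, SE 0.30, adjusted p = 0.0308, and 0.0634 with the replicate block). In Sst-high cells it was at 0, 0.722 and 0.0823 CPM in WT and 0 and 0.298 CPM in null, below the filter on low counts, and the difference between the classes did not pass (-1.79, SE 1.26, adjusted p = 0.818). Igfbp4 (chr11:99041244-99054392), which binds insulin-like growth factors outside the cell, was at 123, 114 and 104 CPM in Sst-low WT cells and at 315 and 409 CPM in Sst-low null cells. The WT libraries are close to each other and both null libraries lie above them (log2 1.69, SE 0.24, adjusted p = 0.0175, and 0.0634 with the replicate block). In Sst-high cells Igfbp4 was at 45.7, 37.9 and 41.9 CPM in WT and 71.4 and 52.5 CPM in null, and the classes differed (-1.33, SE 0.17, adjusted p = 0.00576).

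Igfbp6 (chr15:102144362-102149511), a binding protein that favours insulin-like growth factor 2, was found in Sst-high cells. It rose there by 2.49 (SE 0.32, adjusted p = 0.00333), from 6.0, 7.22 and 6.25 CPM in WT to 59.0 and 27.6 CPM in null, and its WT libraries scarcely vary. In Sst-low cells it is at 1.83, 0.273 and 0.499 CPM in WT and 0 and 1.10 CPM in null, and the difference between the classes did not pass (1.54, adjusted p = 0.732). The Igfbp6 UMIs of null replicate 1 come from 13 of 72 Sst-high cells, with 30.2% of them in 1 cell. Fgf1, a fibroblast growth factor without a classical secretion signal, rose in Sst-low cells from 6.42, 4.10 and 3.75 CPM to 21.2 and 19.6 CPM (log2 2.16, SE 0.34, adjusted p = 0.0367, and 0.121 with the replicate block), where null replicate 1 holds 9 UMIs of it in 5 cells. Of 21 members of neurotrophin and growth factor signalling tested in Sst-low cells 3 rose, Kit, Egfr and Igfbp4, and none fell, where 0.0763% of all genes tested rose. At an unadjusted p under 0.05 the list holds 3 higher and 3 lower, where 5.98% of all genes are at one. The list's median is -0.03, against a median of 0.00 over all genes, and the most abundant member, Ntrk2, did not pass.

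Opn3 (chr1:175662421-175692776), encephalopsin, an opsin-family receptor, was at 15.1, 7.93 and 13.0 CPM in Sst-low WT cells and at 108 and 50.6 CPM in Sst-low null cells. Both null libraries lie above WT, and the rise of 2.44 (SE 0.28, adjusted p = 0.00913) is 2.49 within version 2 and 1.85 within version 3. The annotation places Chml on the same strand within its span, so that reads could be split between them. Of thinned Sst-low cells, 1.02, 1.75 and 1.78% in WT and 15.9 and 5.56% in null kept an Opn3 UMI, against 0.152% of the Mog-positive cells. Megf11 (chr9:64385626-64709205), a transmembrane protein with epidermal growth factor-like repeats that serves in cell spacing in the retina, was at 7.33, 6.01 and 4.62 CPM in Sst-low WT cells and 30.6 and 29.0 CPM in null (log2 2.35, SE 0.31, adjusted p = 0.0138). Ramp3 (chr11:6658521-6677475), which pairs with the calcitonin receptor-like receptor, rose in all interneurons from 18.0, 16.5 and 21.4 CPM to 51.5 and 56.8 CPM (log2 1.55, SE 0.23, adjusted p = 0.0359). In Sst-low cells it was at 48.1, 38.5 and 49.1 CPM in WT and 134 and 115 CPM in null, where it passed 2-fold in both chemistries with an adjusted p of 0.0588. Ramp1, its relative, passed 2-fold in both chemistries in Sst-high cells, though not with the limit on Sst at 1000 or at 10000 CPM, at 7.49, 6.68 and 9.13 CPM in WT and 26.1 and 21.5 CPM in null (adjusted p = 0.092, and 0.0139 with the replicate block). In Sst-low cells the chemistries part for Ramp1, at 29.3, 20.2 and 16.0 CPM in WT and 7.06 and 42.3 CPM in null, with -1.51 within version 2, where null replicate 1 holds 3 UMIs, and 1.03 within version 3. The difference between the classes did not pass for Opn3 (-1.45, adjusted p = 0.0978) or Megf11 (-2.33, adjusted p = 0.0920).

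Hs3st2 (chr7:121391859-121501770), a sulfotransferase that modifies heparan sulfate chains, rose in Sst-low cells by 2.28 (SE 0.32, adjusted p = 0.0175). Its levels there are 9.62, 7.66 and 4.50 CPM in WT and 58.8 and 25.2 CPM in null, without overlap (difference between the classes -0.79, adjusted p = 0.697). Bhlhe41 (chr6:145858243-145865558), a transcriptional repressor of the circadian clock, rose in Sst-high cells from 11.7, 6.50 and 6.83 CPM to 70.0 and 22.1 CPM (log2 2.06, SE 0.29, adjusted p = 0.00885). In Sst-low cells its chemistries part, with -1.23 within version 2, where null replicate 1 holds 3 UMIs, and 1.20 within version 3 (difference between the classes 0.82, adjusted p = 0.767). Of the thinned Mog-positive cells 4.81% kept a Bhlhe41 UMI, close to the 3.5% of Sst-high cells of null replicate 2, while 16.9% of those of null replicate 1 did.

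**Figure D2:**
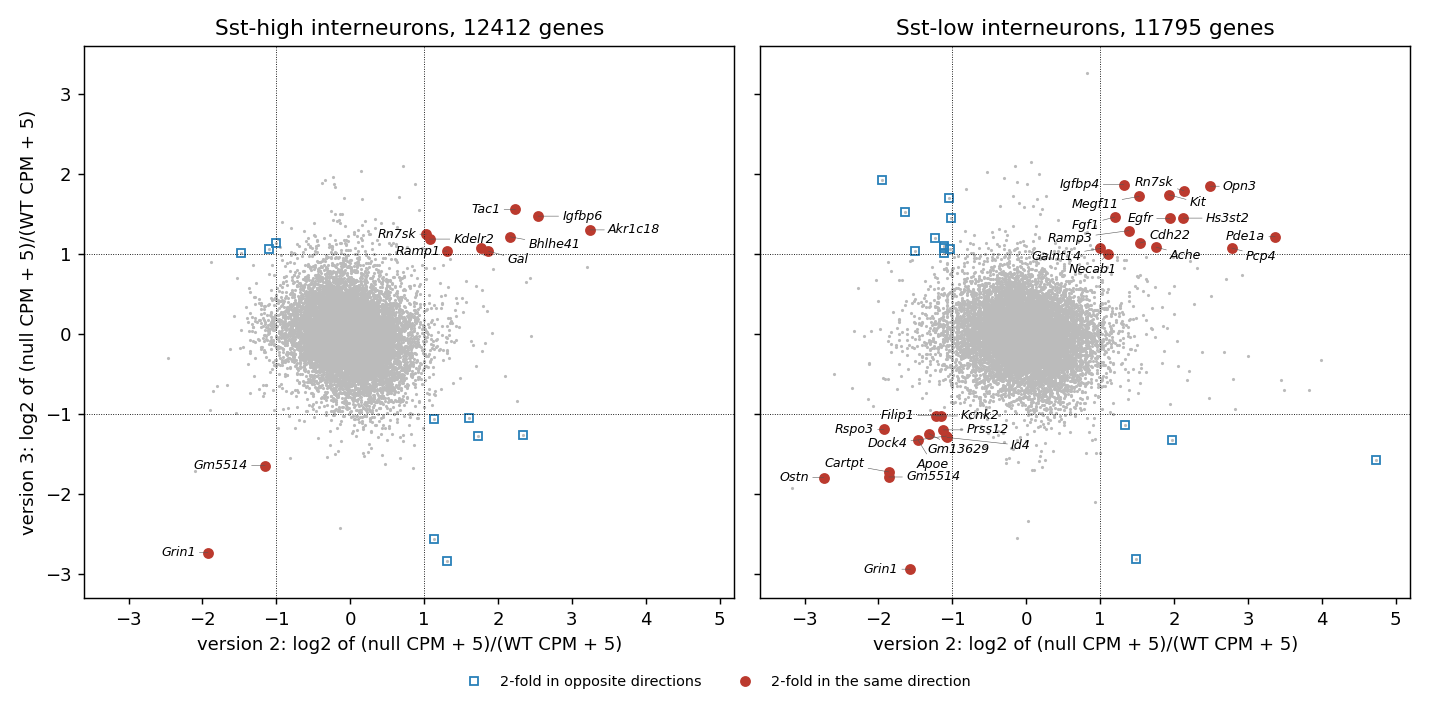
Each point is a gene in Sst-high cells (12412 genes) or Sst-low cells (11795 genes), with log2 of null over WT CPM, 5 CPM added to each, within version 2 on the horizontal axis and within version 3 on the vertical axis; dotted lines mark 2-fold. Filled red circles are the 11 and 27 genes past 2-fold in the same direction in both chemistries, with Grin1 at -2.73 and -2.94 on the vertical axis, and open blue squares are the 9 and 14 genes past it in opposite directions.

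In Sst-high cells the neuropeptide precursor Tac1 (chr6:7554879-7565834), source of substance P, was at 25.5, 68.2 and 95.5 CPM in WT and 139 and 251 CPM in null. The fitted rise is 1.93 (SE 0.28, adjusted p = 0.00934), but 93.1% of the Tac1 UMIs in null replicate 1 come from 1 of 6 cells, and without null replicate 1 it was not called. The call also depends on where the classes are split: with Sst-high set at 1000 CPM of Sst the rise of Tac1 is 1.12, not called and not past 2-fold in both chemistries, whereas at 10000 CPM it is 3.29 and called. Sst-low cells hold far more of it, and there both null libraries lie below WT, at 553 and 741 CPM against 988, 896 and 1716 CPM (log2 -0.83, SE 0.29, adjusted p = 0.626). The difference between the classes is 2.64 (SE 0.18, adjusted p = 1.76e-05). Gal, the galanin precursor, was at 2.75, 1.26 and 3.95 CPM in Sst-high WT cells and 23.3 and 10.6 CPM in null, past 2-fold in both chemistries with an adjusted p of 0.0992 (2.78e-05 with the replicate block), but not past 2-fold in both with the limit on Sst at 1000 CPM. Of 15 neuropeptide genes tested in Sst-high cells, Sst left out since it chose them, 1 rose, Tac1, and none fell, where 0.0403% of all genes tested rose, with 5 higher and 2 lower at an unadjusted p under 0.05 (5.88% of all genes). Their median is 0.43, against 0.00 over all genes, but the median is -0.07 within version 2 and 0.52 within version 3.

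Akr1c18 and Necab2 also rose in Sst-high cells. Akr1c18 (chr13:4132615-4150654), a progesterone-metabolising reductase, was at 0.750, 0.902 and 2.71 CPM in WT and 49.4 and 11.8 CPM in null (log2 3.53, SE 0.55, adjusted p = 0.0152). Its 36 UMIs in null replicate 1 lie in 7 cells, with 47.2% in 1 of them, and it was not called without that library or by DESeq2. Sst-low cells had it at 7.33, 3.01 and 9.99 CPM in WT and 14.1 and 8.15 CPM in null, and the classes differed by 2.85 (SE 0.45, adjusted p = 0.0126). Necab2 (chr8:119446719-119472640), a neuronal calcium-binding protein, rose from 21.7, 14.1 and 14.8 CPM to 43.9 and 66.3 CPM (log2 1.79, SE 0.28, adjusted p = 0.0152), although with 0.87 within version 2 it did not reach 2-fold there. Kdelr2, which retrieves proteins to the endoplasmic reticulum, was past 2-fold in both chemistries, though not with the limit on Sst at 1000 or at 10000 CPM, at 33.2, 13.4 and 17.9 CPM in WT and 75.5 and 41.9 CPM in null (adjusted p = 0.0788, and 0.0341 with the replicate block).

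Chodl-expressing cells, a long-range class of Sst interneurons, are unevenly spread over the Sst-high libraries. A Chodl UMI was found in 34 of 450, 130 of 863 and 75 of 1248 Sst-high cells of WT and in 5 of 72 and 161 of 445 of null. After thinning to 2000 UMIs it is 4.90, 8.95 and 3.19% of WT and 3.08 and 21.0% of null Sst-high cells, where unthinned null replicate 2 has 36.2%. Npy, abundant in that class, was at 9721, 17862 and 9815 CPM in Sst-high WT cells and at 10894 and 35546 CPM in null, so that null replicate 2 and, less so, WT replicate 2 stand out. The 10 Chodl-type markers sum to 10324, 19896 and 10643 CPM in WT and 11444 and 37749.7 CPM in null, with Npy the most abundant, and none of the 10 passed the test in edgeR, with 2 at an unadjusted p under 0.05 (5.88% of all genes). When every cell with a Chodl UMI was left out, an alternative chosen after seeing the data, all 7 Sst-high genes were still called, and 9 of the 11 past 2-fold in both chemistries remained, Rn7sk not among them. Cells of the class in which no Chodl UMI was counted stayed in. The part of the class as a whole in these values was therefore not tested.

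Among Sst-low cells more genes were past 2-fold in both chemistries without passing the test. Cartpt (chr13:99898489-99901091), the precursor of the CART peptides, was at 534, 519 and 976 CPM in WT and 144 and 223 CPM in null. Both null libraries lie well below WT (log2 -1.80, SE 0.31, adjusted p = 0.0588), and of thinned cells 35.8, 36.2 and 44.8% in WT and 20.5 and 12.6% in null kept a Cartpt UMI, against 0.253% of the Mog-positive cells. Ostn, the precursor of osteocrin, a secreted peptide, was at 28.4, 20.2 and 40.3 CPM in WT and 0 and 5.17 CPM in null. Its 0 UMIs in null replicate 1 allow up to 7.06 CPM (3 counts), which makes the gene at least 4.03-fold lower there than in WT replicate 1 (adjusted p = 0.065). In all interneurons the adjusted p of Ostn is 0.19, and 0.00177 with the replicate block. Rspo3, which amplifies Wnt signals, was at 40.8, 43.5 and 33.1 CPM in WT and 7.06 and 13.9 CPM in null (adjusted p = 0.116).

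Kcnk2 (chr1:189207930-189402273), a tandem-pore potassium channel that passes background current, was at 83.4, 108 and 108 CPM in Sst-low WT cells and 32.9 and 50.6 CPM in Sst-low null cells (log2 -1.16, SE 0.26, adjusted p = 0.183). In Sst-high cells it was at 81.4, 158 and 151 CPM in WT and 83.7 and 120 CPM in null, and the difference between the classes is 0.83 (SE 0.15, adjusted p = 0.0289), which did not pass with library totals only (0.75, adjusted p = 0.0538). Id4, an inhibitor of helix-loop-helix transcription factors, was at 30.2, 31.7 and 51.1 CPM in Sst-low WT cells and 11.8 and 13.9 CPM in null. Apoe, the lipid carrier of astrocytes and microglia, was at 41.2, 44.3 and 36.0 CPM in WT and 11.8 and 13.0 CPM in null. That gene is not spread evenly over cells, as 1 cell holds 71.5% of its UMIs in WT replicate 3. The 10 astrocyte markers sum to 192, 297 and 208 CPM in Sst-low WT cells and 195 and 185 CPM in null, with Clu the most abundant, and the part of such RNA in the Apoe values was not tested. The genes Dock4, Prss12 and Filip1 were past 2-fold downward in both chemistries as well, but with 1, 1 and 2 UMIs in null replicate 1.

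Upward, the acetylcholine-degrading enzyme Ache was at 43.1, 31.2 and 25.7 CPM in Sst-low WT cells and 158 and 66.0 CPM in null (adjusted p = 0.065). Pde1a, a phosphodiesterase under the control of calmodulin, was at 5.96, 19.4 and 9.99 CPM in WT and 108 and 40.7 CPM in null (adjusted p = 0.139). Cdh22, a cadherin, was at 3.21, 5.19 and 3.75 CPM in WT and 18.8 and 15.8 CPM in null. Pcp4, Necab1 and Galnt14 are the 3 further genes past 2-fold upward, outside the naming rule. With the limit on Sst at 10000 CPM, 17 of the 27 Sst-low genes past 2-fold in both chemistries remained, and Ache, Cdh22, Pde1a, Id4, Pcp4, Necab1, Galnt14, Dock4, Prss12 and Filip1 were lost. Sst-high cells hold more Pde1a, at 160, 343 and 233 CPM in WT and 280 and 439 CPM in null. Without WT replicate 3 Ache, Pde1a, Id4, Pcp4, Necab1, Prss12 and Gm5514 are lost from the 27, and without WT replicate 2 Filip1 and Galnt14. Crabp1, which binds retinoic acid, passed the test in Sst-low cells but not 2-fold in version 2: it was at 25.7, 14.8 and 24.9 CPM in WT and 49.4 and 234 CPM in null (log2 2.77, SE 0.44, adjusted p = 0.0367, and 0.053 with the replicate block), with 0.83 within version 2 and 3.27 within version 3, and DESeq2 did not call it. Among other members of the Pvalb-type list in Sst-low cells, chosen after their values were seen, Necab2 is at -0.15 within version 2 and 2.1 within version 3 and Pthlh at 0.06 and 2.15, so that both are raised in null replicate 2 with Crabp1, while Etv1 is at 1.62 and 0.68. Outside that list Nkx2-1 is at 0.08 and 1.60 and Hapln1 at 0.09 and 1.16. Whether the share of cells that hold these genes differs was not tested.

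Markers of other neurons are high in the Sst-low cells of null replicate 1. The 10 cholinergic and striatal markers sum to 480 CPM there, against 10.5, 65.3 and 14.9 CPM in WT and 14.1 CPM in null replicate 2. Slc5a7, the choline transporter and the most abundant of them, is at 165 CPM in null replicate 1, in 3 of 47 cells. The 10 markers of interneurons from the caudal ganglionic eminence sum to 282 CPM in null replicate 1 and 167 CPM in null replicate 2, against 77.4, 123 and 41.6 CPM in WT, and Cxcl14 gives 224 CPM of the 282. None of the 7 genes tested in either list passed the test in edgeR, with 1 and 3 at an unadjusted p under 0.05 (5.98% of all genes), all higher in null. The median of the cholinergic and striatal list is 1.18, with 3.44 within version 2 and -0.70 within version 3. That of the caudal list is 0.856, with 0.325 within version 2 and 0.703 within version 3, against 0.00 over all genes. Ache, at 158 CPM in null replicate 1 against 66.0 CPM in null replicate 2, and Pde1a, at 108 against 40.7 CPM, are high in the same library. Among the called genes that rose in Sst-low cells, Opn3, at 108 against 50.6 CPM, and Hs3st2, at 58.8 against 25.2 CPM, are also higher there. Fgf1 and Megf11 are slightly higher there, while Kit, Egfr, Igfbp4, Crabp1 and Rn7sk are lower. The part of cells with markers of other neurons in these values was not tested. Of 14 Pvalb-type markers tested in Sst-low cells 1 rose, Crabp1, and none fell, with 4 higher and 3 lower at an unadjusted p under 0.05 and a median of -0.09, and of 13 tested in Sst-high cells 2 rose, Tac1 and Necab2, and none fell, with 3 higher and 1 lower and a median of -0.15. Over all genes 0.0763% and 0.0403% rose, 5.98% and 5.88% had an unadjusted p under 0.05 and the medians are 0.00. Pvalb, the marker of fast-spiking cells, was at 1301, 1354 and 1369 CPM in Sst-low WT cells and at 2042 and 720.5 CPM in null, so that the null libraries lie on either side of WT. Pthlh, found in chandelier-type cells, was at 137, 75.7 and 56.6 CPM in WT and 144 and 311 CPM in null (adjusted p = 0.313). For the neurogliaform list, 2 of 12 tested members rose in Sst-low cells, Kit and Egfr, and none fell, where 0.0763% of all genes tested rose, with 3 higher and 0 lower at an unadjusted p under 0.05. The median is 0.36, against 0.00 over all genes, but it is -0.01 within version 2 and 0.57 within version 3. Lamp5, which marks those cells, stood at 57.7, 46.5 and 43.6 CPM in WT and 51.8 and 82.9 CPM in null, so that a change in the share of neurogliaform cells and a change within cells cannot be told apart for Kit and Egfr here.

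Rn7sk, Mir6236, Gm5514 and Gm13629 do not encode proteins, and their counts are uncertain. Rn7sk (chr9:78175303-78175633), the 7SK RNA that restrains transcription elongation, was at 10.1, 30.1 and 12.9 CPM in Sst-low WT cells and 61.2 and 86.7 CPM in null (log2 2.21, SE 0.35, adjusted p = 0.0367). Its call there ends with at least 6 Gad1 and Gad2 UMIs, without the limit on Mog and with the limit on Sst at 10000 CPM. Over all settings run its fitted rise there lies between 1.74 and 2.70. In Sst-high cells it was at 25.0, 44.9 and 21.0 CPM in WT and 56.3 and 85.1 CPM in null (adjusted p = 0.189), and in all interneurons its adjusted p is 0.193, and 0.0387 with the replicate block. Since 7SK has no natural poly(A) tail and has copies across the genome, and 11.2% of thinned Mog-positive cells kept a UMI of it, its counts cannot be tied to 1 locus. Mir6236 (chr9:110281287-110281409) passed the test in all 3 sets, but only through version 3: in all interneurons it was at 0.495, 38.8 and 23.0 CPM in WT and 0 and 1.42 CPM in null. Both libraries of version 2 are at 3 UMIs or fewer, so there is no comparison within it. Without WT replicate 2 Mir6236 was called in none of the 3 sets, Sst-low cells included. Gm5514 (chr19:21937380-21938381), a processed pseudogene, was at 21.0, 15.6 and 48.4 CPM in WT and 4.37 and 6.56 CPM in null (adjusted p = 0.297, and 0.0357 with the replicate block), and reads of its parent gene could fall on it. Gm13629 (chr2:66440880-66546026), an antisense gene across Scn9a, was at 137, 116 and 92.2 CPM in Sst-low WT cells and 51.8 and 41.1 CPM in null, and whether the counting kept strands apart is not given in the sources used here.

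The genotype effect differed between Sst-high and Sst-low cells in 63 of 13071 genes (0.482%), 34 with the higher value in Sst-high cells, and 1063 had an unadjusted p under 0.05 (8.13%). Among genes past the naming rule these are Tac1, Kit, Igfbp4, Crabp1, Akr1c18 and Kcnk2. Outside it, chosen after their values were seen, Crhbp, which binds corticotropin-releasing hormone, was at 390, 822 and 551 CPM in Sst-high WT cells and 771 and 1454 CPM in null, but at 45.8, 72.5 and 51.7 CPM in Sst-low WT cells and 40.0 and 26.0 CPM in null (difference 2.17, SE 0.19, adjusted p = 0.000169). Hapln1, a link protein of perineuronal nets, was at 271, 260 and 241 CPM in Sst-low WT cells and 289 and 566 CPM in null, and the difference between classes is -1.65 (SE 0.21, adjusted p = 0.00545). Sst itself, used for the split, is among the 63 and is no finding. The test of the class difference was not rerun with a library left out, with other limits on Sst, with thinned cells or by DESeq2.

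**Figure D3:**
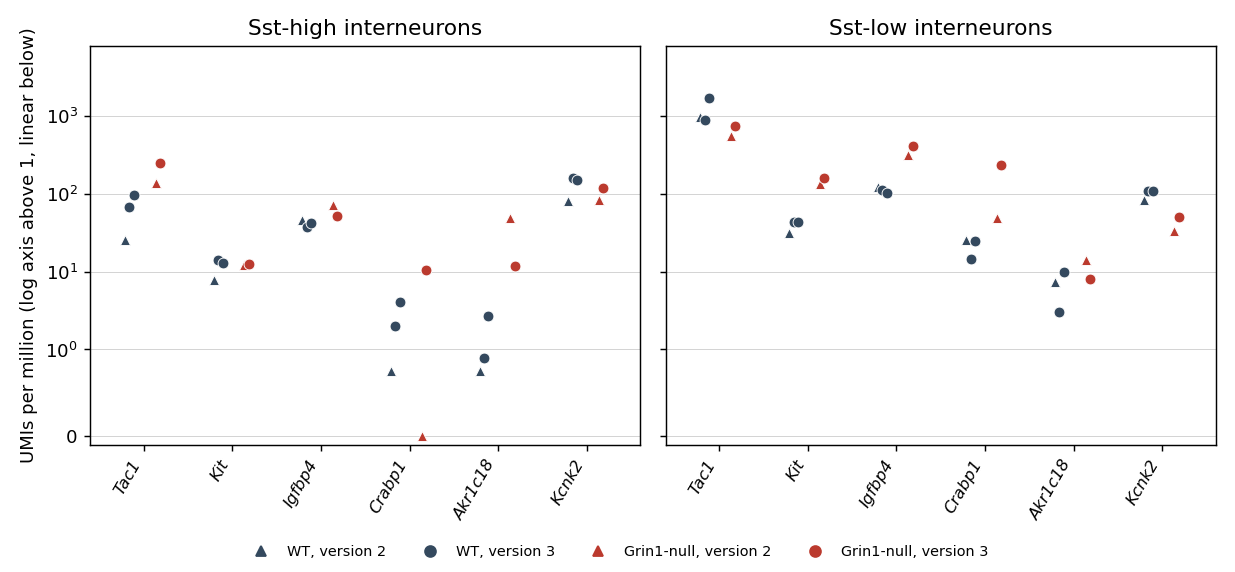
Each point is 1 library, with CPM on the vertical axis (logarithmic above 1, linear below), Sst-high cells on the left and Sst-low cells on the right, for the 6 named genes whose genotype effect differed between the classes. Kit lies at 12.4 and 12.5 CPM in Sst-high null cells and at 134 and 159 CPM in Sst-low null cells, and Tac1 is above WT in Sst-high null cells and below WT in Sst-low null cells.

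The share of Sst-high cells was below every WT library in null replicate 2 but not in null replicate 1. It was 60.5% (95% Wilson interval 56.9 to 63.9), 54.4% (51.9 to 56.8) and 58.6% (56.5 to 60.7) in WT and 60.5% (51.5 to 68.8) and 47.1% (44.0 to 50.3) in null. The means are 57.8 ± 3.13% (SD, n = 3) and 53.8 ± 9.45% (n = 2), a difference of -4.01 points (2-sided exact permutation p = 0.7, the smallest possible being 0.1), and without null replicate 2 the sign turns, to 2.67 points. The intervals cover counting error only.

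Groups of genes that NMDA receptor signalling might be read from held no gene that passed. The cells of both genotypes were prepared in activity blockers and actinomycin-D, and the part of these in the levels was not tested. Of 23 AMPA and kainate receptor genes tested in all interneurons none passed in edgeR, with 2 at an unadjusted p under 0.05 and a median of -0.03, where 0.0813% of all genes passed, 5.09% had such a p and the median is -0.02. Summed, they stand at 2423, 2599 and 2690 CPM in WT and 2738 and 2449 CPM in null. Of 27 immediate early genes none passed, with 2 at an unadjusted p under 0.05 and a median of -0.15. Their sum is 941, 2518 and 1467 CPM in WT and 1047 and 1746 CPM in null, led by Jund, and WT replicate 2 is the highest. Npas4, a calcium-dependent factor, was at 1.98, 30.4 and 1.70 CPM in WT and 1.75 and 3.65 CPM in null, so that a single WT library carries it. None of 22 calcium-calmodulin kinases and phosphatases, 19 postsynaptic scaffolds, 14 GABA receptor genes or 6 metabotropic glutamate receptors passed, with 1, 0, 0 and 0 at an unadjusted p under 0.05 and medians of -0.07, 0.02, -0.01 and -0.17.

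Of 23 MGE fate transcription factors none passed in edgeR, with 2 higher and 4 lower at an unadjusted p under 0.05, against 5.09% of all genes in either direction, and a median of -0.34 in all interneurons (-0.08 within version 2 and -0.47 within version 3), and 6 of the 23 lie below WT in both null libraries where 8.33% of all genes do. Among them Nr2f1 was at 64.2, 44.4 and 59.7 CPM in WT and 41.0 and 33.5 CPM in null (adjusted p = 0.868), and Satb1, a chromatin organiser of Sst cells, at 541, 482 and 546 CPM in WT and 423 and 340 CPM in null (adjusted p = 0.988). Nkx2-1, the gene that gives the Nkx2.1-Cre line its name, was at 12.5, 9.99 and 6.94 CPM in WT and 14.8 and 34.5 CPM in null (adjusted p = 0.327). None of 37 potassium and HCN channel genes passed, nor of 10 sodium channel genes, 15 calcium channel genes, 44 synaptic organisers, 21 cadherins, 33 guidance genes, 23 matrix genes or 33 vesicle release entries (Pclo is counted under 2 gene identifiers), with 4, 0, 1, 4, 1, 3, 5 and 2 at an unadjusted p under 0.05 and medians between -0.05 and 0.08. Over all genes that share is 5.09%, and the 5 of 23 matrix genes are all higher in null.

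Null replicate 2 also stands apart in mt- and heat shock genes. The mt- genes, limited by the choice of cells, sum to 15337, 16615 and 16207 CPM in WT and 15016 and 22765 CPM in null. Of 14 tested none passed in edgeR, with 4 higher and 0 lower at an unadjusted p under 0.05 and a median of 0.40 (0.24 within version 2 and 0.39 within version 3). Heat shock and stress genes sum to 6127, 6435 and 7740 CPM in WT and 7027 and 4394 CPM in null, with Hsp90ab1 the most abundant and none of 18 past the test or at an unadjusted p under 0.05. Nuclear genes of oxidative phosphorylation (70 tested, median -0.03) and cytosolic ribosomal proteins (80 tested, median -0.10) held none either, with 1 and 0 at an unadjusted p under 0.05 (5.09% of all genes). With mt- genes left out 11 genes were called in all interneurons, 7 in Sst-high and 11 in Sst-low cells, and with at least 1000 genes and under 10% mt- UMIs per cell 11, 7 and 17 were, and under both settings all 11, 7 and 11 reported genes were kept. Leaving out heat shock genes was not tested.

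The hippocampal interneurons of the same series, 2143 WT and 1698 null cells by the same limits, served to ask whether a cortical change differs between regions. No gene of 13739 passed the test of that difference in edgeR (0.0%), where 130 had an unadjusted p under 0.05 (0.946%), and DESeq2 was not run for it. That fit takes the libraries of both regions as independent, although the study's methods have both regions taken from the same brains. With genotype and replicate number as a block over both regions, an alternative chosen after seeing the data, 0 genes passed and 513 had an unadjusted p under 0.05 (3.73%). Xist is at 554, 0 and 358 CPM in hippocampal WT and 0 and 0.044 CPM in null, unlike cortex in WT replicate 3 and null replicate 1, so that it is open whether a replicate number marks the same animals in both regions. A difference between the regions is therefore neither shown nor excluded. Kit was at 5.34, 8.38 and 10.7 CPM in hippocampal WT replicates 1, 2 and 3 and 1.99 and 8.22 CPM in null, and cortex minus hippocampus is 2.22 (SE 0.42, adjusted p = 1.0), or 2.19 with the block (SE 0.38, adjusted p = 0.138). Egfr was at 17.5, 24.0 and 26.0 CPM in WT and 8.96 and 22.2 CPM in null there, and its difference is 2.62 (SE 0.44, adjusted p = 1.0), or 2.56 with the block (SE 0.40, adjusted p = 0.138). Grin1 was at 118, 164 and 137 CPM in hippocampal WT and 27.9 and 18.2 CPM in null (log2 -2.65, SE 0.37, adjusted p = 0.337), a difference between regions of 0.03 (SE 0.47), or 0.02 with the block (SE 0.27).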

How the data were processed

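Gene by cell counts of UMIs were deposited by the authors, made with Cell Ranger 2.1.1 on mm10 per the submitters' notes (the matrices' headers name 3.0.2), with gene ends extended per the study's methods. Cells were assigned to libraries by barcode suffix. No doublet caller was run, and the limits of 200 to 6000 genes and no Mog UMI served in its place. UMIs were summed per library and class, and genotype was tested with edgeR 4.0.16 (quasi-likelihood, TMM, R 4.3.3), with chemistry as a covariate and Benjamini-Hochberg adjusted p under 0.05. CPM (counts-per-million) were taken on TMM library sizes. Within a chemistry, values are log2 of null over WT after adding 5 CPM, with the mean of the WT libraries in version 3, and a gene counts as past 2-fold in both only where null lies outside both WT libraries of version 3. Differences between classes and regions are interaction terms. The study's methods take null mice from the litters of the WT mice and give replicates 1 and 2 as 1 round each with both genotypes, so replicate numbers were read as pairs, after the calls of both fits had been seen. The deviations of null and WT replicate 1 from their group means correlate at 0.28 across genes and those of replicate 2 at 0.25, which is no evidence of pairing: replicate 1 is the only version 2 library of either genotype, and 2 null libraries deviate as mirror images. Null replicate 2 also correlates at 0.13 with WT replicate 3. WT replicate 3 has no null partner. Animals were pooled, and p-values measure the spread between libraries. Intervals and floors cover counting error only.

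The text names Grin1, up to 10 rises and 10 falls per set past the test, up to 12 per direction past 2-fold in both chemistries, and list members past either rule; other genes are given as values. Some results under these rules are not reported here. Members and lists were chosen with earlier results of these data known. Coordinates are from GENCODE on GRCm38. The alternatives were DESeq2 1.42.0, other filters, thresholds, pseudocounts and scaling, no chemistry term, a replicate block, thinning and leaving out each library. The scripts' tests were tested on simulated data.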

Additional observations from a re-analysis of the deposited data

Results flagged for a closer look

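The genotype effect differed between Sst-high and Sst-low cells, by an interaction test in edgeR, in 63 genes, 6 of which fall under the naming rule. As the log2 change in Sst-high cells minus that in Sst-low cells, the difference is 2.64 for Tac1, -1.85 for Kit, -1.33 for Igfbp4, -1.81 for Crabp1, 2.85 for Akr1c18 and 0.83 for Kcnk2. The difference of Kcnk2 was not called with library totals only (0.75), and those of Kcnk2, Crabp1 and Akr1c18 were not called at an adjusted p under 0.01. No other alternative was run for the class difference, so its hold without single libraries or at other limits on Sst was not tested. Of the Tac1 UMIs of Sst-high cells in null replicate 1, 93.1% lie in 1 cell. Groups of 2 or 3 libraries were not tested for a library far from the others.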

How the results depend on the processing

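With the replicate block 42 genes were called in all interneurons, 31 in Sst-high and 9 in Sst-low cells, and 11, 7 and 7 of the reported genes were kept. In Sst-low cells Egfr, Igfbp4, Fgf1 and Crabp1 were lost. Among the other reported genes past the naming rule it added calls of Gm5514, Ostn and Rn7sk in all interneurons and of Gal, Kdelr2 and Ramp1 in Sst-high cells, and changed no other call. The block leaves fewer residual degrees of freedom than the chemistry term does.

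In all interneurons 0 genes were called at an adjusted p under 0.01, 27 by DESeq2, 0 without a chemistry term, 134 with no filter on low counts and 4 with at least 6 Gad1 and Gad2 UMIs, and 0 to 82 with 1 library left out. In Sst-high cells 19 were called by DESeq2, 0 without a chemistry term, 114 with no filter, 4 after thinning and 35 with Sst at least 10000 CPM, and 2 to 620 with 1 library left out. In Sst-low cells 3 were called at 0.01, 23 by DESeq2, 0 without a chemistry term, 26 with library totals only (18 higher, against 9 of 11), 128 with no filter, 17 with at least 1000 genes and under 10% mt- UMIs, 7 with at least 6 Gad1 and Gad2 UMIs, 21 after thinning, 18 with Sst at least 1000 CPM and 17 without Chodl cells, and 0 to 157 with 1 library left out. The class difference was called in 13 genes at 0.01.

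The count past 2-fold in both chemistries was 49, 75 and 108 (all, Sst-high, Sst-low) with 1 CPM added, 3, 2 and 9 with 20 CPM, 70, 104 and 167 at 1.5-fold and 26, 51 and 64 after thinning, and 23 in Sst-high cells with Sst at least 10000 CPM. With WT replicate 2 or 3 left out it was 14 to 24, 10 to 18 and 24 to 37. It cannot be computed without WT replicate 1, null replicate 1 or null replicate 2.

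Grin1 kept its direction under each alternative run. It did not pass at 0.01 in all interneurons (-2.65) or Sst-low cells (-2.73), nor without a chemistry term (-2.66, -2.64 in Sst-high and -2.70 in Sst-low cells). With 1 library left out it lies between -3.08 and -1.96 in all interneurons, -2.92 and -2.07 in Sst-high and -3.21 and -1.69 in Sst-low cells. The share of Sst-high cells turned to 2.67 points without null replicate 2, in a range of -10.7 to 2.67. The cause was not tested. Where 1 null library remains, it is assumed to vary like the WT libraries. The same holds without WT replicate 1, where null replicate 2 alone carries the genotype effect. Leaving out Chodl cells, lifting the upper limit on genes and a block over both regions (0 genes called) were chosen after seeing the data. Lifting the limit on genes gave 9 calls in Sst-low cells and ended those of Crabp1 and Fgf1 there. It also took Ache, Galnt14, Pcp4 and Pde1a from the 27 Sst-low genes past 2-fold in both chemistries. Of 781 other values of named genes outside the leave-outs, 613 kept their side of the threshold. A smaller share of them did so with a library left out.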
